A study of Mus musculus with 18 samples.

Results

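The genes Id2, Id3, Tcf3, Tcf4, Tcf12, Zeb1 and Zeb2 were followed in T cells sorted from mouse bone marrow. They were taken by their symbols from the deposited count tables, and all 7 were found among the 23930 genes of the panel. In pMT-10 mice a metallothionein promoter drives an IL-10 transgene and responds to zinc. Those that drank zinc-enriched water for 30 days are called zinc-fed pMT-10. The control groups were pMT-10 mice on control water (pMT-10 without zinc) and C57BL/6 mice on the zinc water (zinc-fed C57BL/6). CD8 and CD4 T cells were purified by flow cytometric sorting, which gave 18 libraries in 6 groups of 3. The labels give neither the markers of the sort nor the age of the mice, and the transgene was present in both pMT-10 groups. The metallothionein promoter is not specific to T cells, and the labels do not say which cells made the IL-10 that the sorted cells met.

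E-proteins are basic helix-loop-helix transcription factors that bind E-box motifs in DNA as dimers. In lymphocytes they are E2A, the product of Tcf3, E2-2, the product of Tcf4, and HEB, the product of Tcf12. Id2 and Id3 carry the same dimerization helices but no basic region, so an E-protein bound to an Id protein cannot hold DNA. In T cells Id2 is known for effector differentiation, and Id3 for the naive and memory states. Zeb1 and Zeb2 are zinc-finger repressors that also bind E-boxes. Zeb2 is known to act with T-bet in terminal effector CD8 cells, and Zeb1 in memory CD8 cells.

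The panel amplifies 1 short piece of each transcript, so the counts do not separate isoforms such as the E12 and E47 forms of Tcf3. Total counts ran from 10546798 to 18519474 per library, and 1 CPM, the usual depth-scaled unit, stood for 10.5 to 18.5 reads. All values below are CPM scaled by TMM, a correction for library composition, and all 7 genes passed the filter on low counts. Cd8a averaged 2374 ± 305 CPM in zinc-fed pMT-10 CD8 cells and 1.33 ± 1.03 CPM in their CD4 cells, while Cd4 averaged 0.691 ± 0.963 CPM in those CD8 cells and 3253 ± 132 CPM in those CD4 cells (SD, n = 3 each). Il10 averaged 12.8 ± 9.62 CPM in zinc-fed pMT-10 CD8 cells and had 0 counts in all 6 control CD8 libraries. In CD4 cells Il10 averaged 21.2 ± 4.71 CPM in zinc-fed pMT-10 mice, 2.71 ± 1.16 CPM in pMT-10 without zinc and 6.13 ± 2.76 CPM in zinc-fed C57BL/6 mice. The 12 libraries of zinc-fed mice were on 1 sequencing chip and the 6 without zinc on another, so zinc and chip cannot be told apart, whereas zinc-fed pMT-10 and C57BL/6 mice share 1 chip. Y-linked genes summed to 0 to 8 counts in the pMT-10 libraries and to 2866 to 5188 counts in the C57BL/6 libraries, so strain and sex differ together. No label ties a CD8 library to a CD4 library of the same mouse, and p-values measure the spread between these samples. Sample titles number the CD4 and CD8 libraries of each kind of mouse in turn, so 1 mouse may have given both. The tests treat all libraries as independent.

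CD4 cells of zinc-fed pMT-10 mice differed from both controls in Id2, Id3 and Zeb2. Their CD8 cells differed from both controls in Id2, and from C57BL/6 but not past the threshold from pMT-10 without zinc in Id3 and Zeb2. The E-protein genes and Zeb1 passed the test in none of these comparisons. Id2 rose in both cell types against both controls. Id3 fell in CD4 cells to 0.150 of its level in zinc-fed C57BL/6 and to 0.153 of its level in pMT-10 without zinc. In CD8 cells it fell to 0.588 of its level in C57BL/6. Zeb2 rose against C57BL/6 in both cell types and against pMT-10 without zinc in CD4 cells. The test was edgeR's quasi-likelihood test with Benjamini-Hochberg adjustment over the 11316 genes tested. Genes with an adjusted p under 0.05 are called, and every adjusted p below comes from this test unless another tool is named.

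In CD8 cells, 3 of the 7 genes were called between zinc-fed pMT-10 and C57BL/6 (Id2 and Zeb2 higher, Id3 lower), where 8.81% of all tested genes were called. Against pMT-10 without zinc 1 of 7 was called (Id2), where 7.74% of all genes were. In CD4 cells, 3 of 7 were called against zinc-fed C57BL/6 (18.7% of all genes) and 3 of 7 against pMT-10 without zinc (18.8% of all genes), with Id2 and Zeb2 higher and Id3 lower in both. The median log2 change of the 7 genes against C57BL/6 was -0.16 in CD8 cells and -0.11 in CD4 cells, beside -0.0037 and -0.047 over all tested genes. The comparisons with the 2 controls share the zinc-fed pMT-10 libraries, so their values are given side by side. The 7 genes were chosen with earlier results of these data known, so the counts beside the shares of all genes are descriptions. In these bulk samples, fewer cells of a type and less RNA per cell cannot be told apart.

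**Figure D1:**
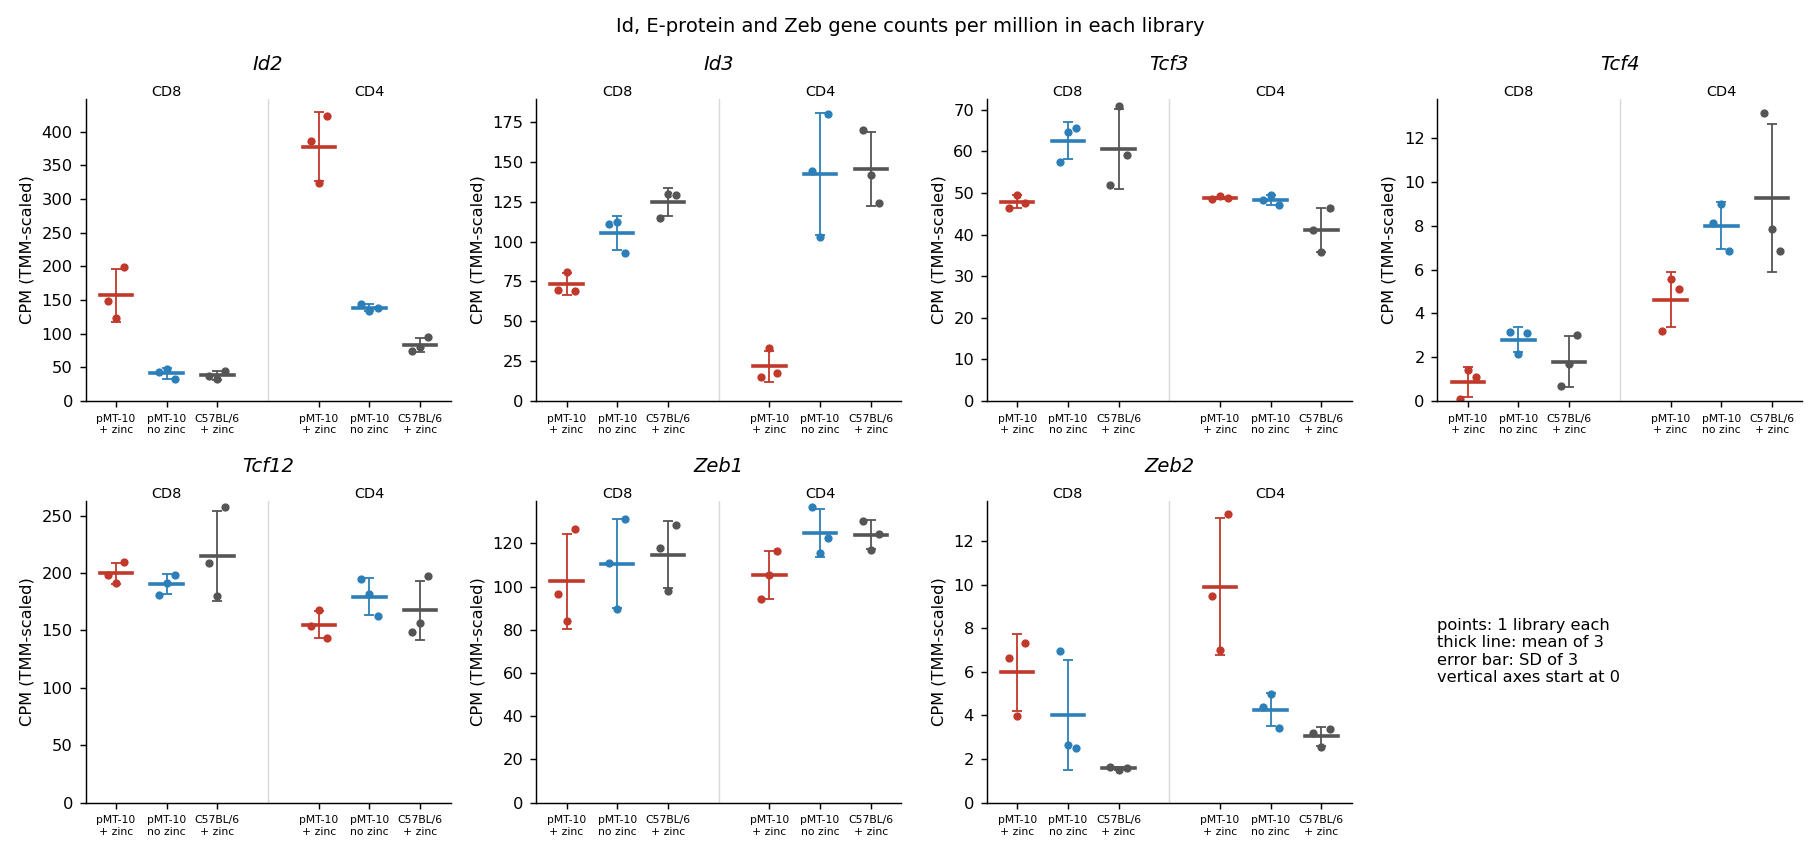
Level in CPM of the 7 genes in each library, with CD8 groups to the left and CD4 groups to the right in every panel; points are libraries, thick lines are means and bars are SDs of 3, and each vertical axis starts at 0. Id2 stood higher in zinc-fed pMT-10 (157 CPM in CD8, 378 CPM in CD4) than in either control, and Id3 was lowest in CD4 cells of zinc-fed pMT-10 mice (21.8 CPM).

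The windows upstream of Id2 and Id3 are shown because these genes had the largest differences of the 7 in CD4 cells against both controls and moved in opposite directions. Each is the 250 bases before the gene's start in RefSeq (build GRCm38.p6), 5′ to 3′ on the gene's strand, with E-boxes (CANNTG, read on both strands) in capitals. The Id2 window is chr12:25096093-25096342 on the minus strand, and the Id3 window is chr4:136143572-136143821 on the plus strand. GENCODE M21 (GRCm38) places Id2 at chr12:25093799-25097140 and Id3 at chr4:136143497-136145755, so its outermost starts lie farther upstream and both windows fall inside its gene bounds.
Id2: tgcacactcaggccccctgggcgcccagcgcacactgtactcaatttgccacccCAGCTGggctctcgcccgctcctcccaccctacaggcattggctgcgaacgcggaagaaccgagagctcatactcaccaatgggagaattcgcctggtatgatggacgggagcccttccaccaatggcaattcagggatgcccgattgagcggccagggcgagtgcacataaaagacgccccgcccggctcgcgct
Id3: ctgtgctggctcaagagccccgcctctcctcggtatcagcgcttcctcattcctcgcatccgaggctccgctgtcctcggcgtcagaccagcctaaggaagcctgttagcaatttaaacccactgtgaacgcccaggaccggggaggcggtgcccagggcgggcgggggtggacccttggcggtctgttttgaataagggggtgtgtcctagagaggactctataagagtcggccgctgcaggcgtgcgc
The Id2 window held 1 E-box, CAGCTG, beginning 196 bases before the start, and the Id3 window held none. An E-box was present in 66.2% of 32851 RefSeq promoter windows of this length, with a median of 1 match. The form CAGGTG, which is known for Zeb binding and is part of the CANNTG set, was present in 17.2% of windows and in neither of these. The palindrome TTCNNNGAA, bound by STAT factors, was present in 7.02% of windows and in neither of these. Of the 4 windows of Zeb2 start sites 2 held it at 1 shared site, TTCTGTGAA, beginning 147 and 173 bases before their starts. These are descriptions of letters in a short window and say nothing of binding.

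Id2 had 148.2, 122.7 and 199.2 CPM in zinc-fed pMT-10 CD8 cells, against 42.3, 47.9 and 32.7 CPM in pMT-10 without zinc and 37.2, 31.96 and 44.2 CPM in zinc-fed C57BL/6 mice. Every zinc-fed pMT-10 CD8 library lay above every control CD8 library, and the control groups overlapped. The means were 157 ± 38.9, 41.0 ± 7.69 and 37.8 ± 6.16 CPM (SD, n = 3 each). Id2 was 4.14-fold higher in zinc-fed pMT-10 than in C57BL/6 (log2 2.05, 95% CI 1.67 to 2.43, adjusted p = 3.54e-07), which gave it rank 9 by p among 11316 genes. It was 3.83-fold higher than in pMT-10 without zinc (log2 1.94, 95% CI 1.56 to 2.32, adjusted p = 7.19e-07).

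In CD4 cells Id2 had 387, 324 and 424 CPM in zinc-fed pMT-10 mice, 144, 134 and 137 CPM in pMT-10 without zinc, and 74.9, 79.8 and 94.6 CPM in zinc-fed C57BL/6 mice. The 3 groups did not overlap, and zinc-fed pMT-10 was the highest. Id2 was 4.55-fold higher in zinc-fed pMT-10 than in C57BL/6 (log2 2.19, 95% CI 1.81 to 2.57, adjusted p = 7.49e-08). It was 2.73-fold higher than in pMT-10 without zinc (log2 1.45, 95% CI 1.08 to 1.82, adjusted p = 6.25e-06). The change in CD8 cells minus that in CD4 cells was -0.14 on the log2 scale against C57BL/6 (95% CI -0.66 to 0.38, adjusted p = 0.81) and 0.49 against pMT-10 without zinc (95% CI -0.03 to 1.01, adjusted p = 0.299). Neither interval excludes changes of unequal size in the 2 cell types. Over the 6 groups the mean Id2 level ran from CD4 cells of zinc-fed pMT-10 mice downward through CD8 cells of the same mice, CD4 cells without zinc, CD4 cells of C57BL/6, and the 2 control CD8 groups. Zinc-fed pMT-10 CD8 cells overlapped with CD4 cells of pMT-10 mice without zinc, as did the 2 control CD8 groups with each other.

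Id3 had 15.01, 33.0 and 17.5 CPM in CD4 cells of zinc-fed pMT-10 mice, against 145, 103 and 180.1 CPM in pMT-10 without zinc and 170.3, 142 and 124 CPM in zinc-fed C57BL/6 mice. The highest zinc-fed pMT-10 library lay far below the lowest control library, and the control groups overlapped. The means were 21.8 ± 9.78, 143 ± 38.5 and 146 ± 23.2 CPM (SD, n = 3 each). Against C57BL/6 Id3 fell by 2.74 on the log2 scale (95% CI -3.25 to -2.24, adjusted p = 1.47e-07), a ratio of means of 0.150. Against pMT-10 without zinc it fell by 2.71 (95% CI -3.22 to -2.21, adjusted p = 1.95e-07), a ratio of 0.153. Without replicate 2 of zinc-fed pMT-10 CD4, which held the 33.0 CPM, the log2 change against C57BL/6 was -3.16.

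In CD8 cells Id3 had 69.9, 81.2 and 68.9 CPM in zinc-fed pMT-10 mice, 111, 113 and 93.0 CPM in pMT-10 without zinc, and 115, 130.2 and 129.5 CPM in zinc-fed C57BL/6 mice. All 3 zinc-fed pMT-10 libraries lay below all 6 control libraries. Against C57BL/6 Id3 fell by 0.77 on the log2 scale (95% CI -1.24 to -0.30, adjusted p = 0.0371), a ratio of 0.588. This call was narrow. It was lost when 1 of 7 libraries was left out (any CD8 library of C57BL/6 or zinc-fed pMT-10, or replicate 1 of pMT-10 without zinc CD4), with adjusted p up to 0.115 and log2 changes of -0.83 to -0.72. It was also lost without TMM scaling (log2 -0.71, adjusted p = 0.0523). The difference from pMT-10 without zinc did not pass (log2 -0.52, 95% CI -0.99 to -0.06, adjusted p = 0.178).

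The Id3 difference itself was not the same size in the 2 cell types. Relative to C57BL/6 the log2 change in CD8 cells minus that in CD4 cells was 1.98 (95% CI 1.30 to 2.65, adjusted p = 0.0013), and 1 of the 7 genes, Id3, passed this test, where 5.49% of all genes did. Relative to pMT-10 without zinc it was 2.19 (95% CI 1.51 to 2.86, adjusted p = 0.000475), again for Id3 alone of the 7, where 3.78% of all genes passed. In zinc-fed pMT-10 mice Id3 was 3.36-fold higher in CD8 than in CD4 cells (log2 1.75, 95% CI 1.26 to 2.25, adjusted p = 1.12e-05). In the controls the log2 difference was -0.43 without zinc (adjusted p = 0.186) and -0.22 in C57BL/6 (adjusted p = 0.539), and neither passed. Over the 6 groups the mean Id3 level was lowest in CD4 cells of zinc-fed pMT-10 mice and next lowest in their CD8 cells, and these 2 groups overlapped neither with each other nor with any control group.

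**Figure D2:**
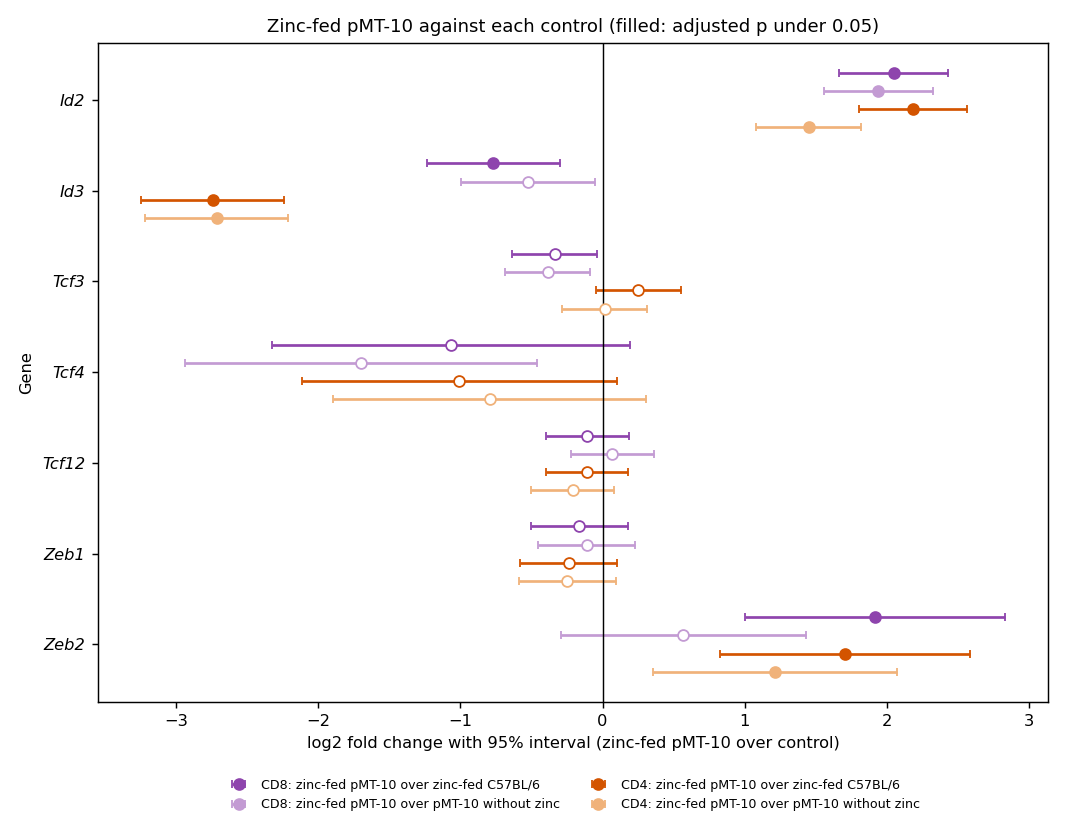
Log2 fold change of each gene in zinc-fed pMT-10 over each control, in CD8 (purple) and CD4 (orange) cells, with 95% confidence intervals; filled points had an adjusted p under 0.05. All 4 Id2 points lay to the right of 0 (1.45 to 2.19), the 2 CD4 points of Id3 lay at -2.74 and -2.71, and the intervals of Tcf12 and Zeb1 all spanned 0.

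The balance between the Id genes was read within each library as the log2 ratio of Id2 to Id3 counts. Each gene has its own amplicon, so a ratio of 0 does not mean equal transcript numbers, and differences between groups alone can be read. In CD8 cells the log2 ratio was 1.08, 0.60 and 1.53 in zinc-fed pMT-10 mice, -1.39, -1.23 and -1.51 in pMT-10 without zinc, and -1.62, -2.02 and -1.55 in zinc-fed C57BL/6 mice. In CD4 cells it was 4.68, 3.29 and 4.60 in zinc-fed pMT-10 mice, -0.0052, 0.38 and -0.39 in pMT-10 without zinc, and -1.19, -0.83 and -0.40 in zinc-fed C57BL/6 mice. In both cell types every zinc-fed pMT-10 library had a higher Id2 share than every control library. The group means lay 1.07 ± 0.468 for zinc-fed pMT-10 CD8 and 4.19 ± 0.781 for zinc-fed pMT-10 CD4. The control means lay between -1.73 ± 0.256 (C57BL/6 CD8) and -0.0067 ± 0.384 (CD4 without zinc). Set against Tcf12, an E-protein gene which passed the test in none of these comparisons, the log2 ratio of Id2 averaged -0.38 ± 0.285, -2.23 ± 0.323 and -2.50 ± 0.0305 in CD8 cells from zinc-fed pMT-10, pMT-10 without zinc and C57BL/6 mice. In CD4 cells the same ratio averaged 1.28 ± 0.309, -0.37 ± 0.114 and -1.01 ± 0.0451 in that order of mice. For Id3 over Tcf12 the averages were -2.91 ± 0.519, -0.36 ± 0.486 and -0.20 ± 0.434 in CD4 cells, and the zinc-fed pMT-10 group was the lowest.

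**Figure D3:**
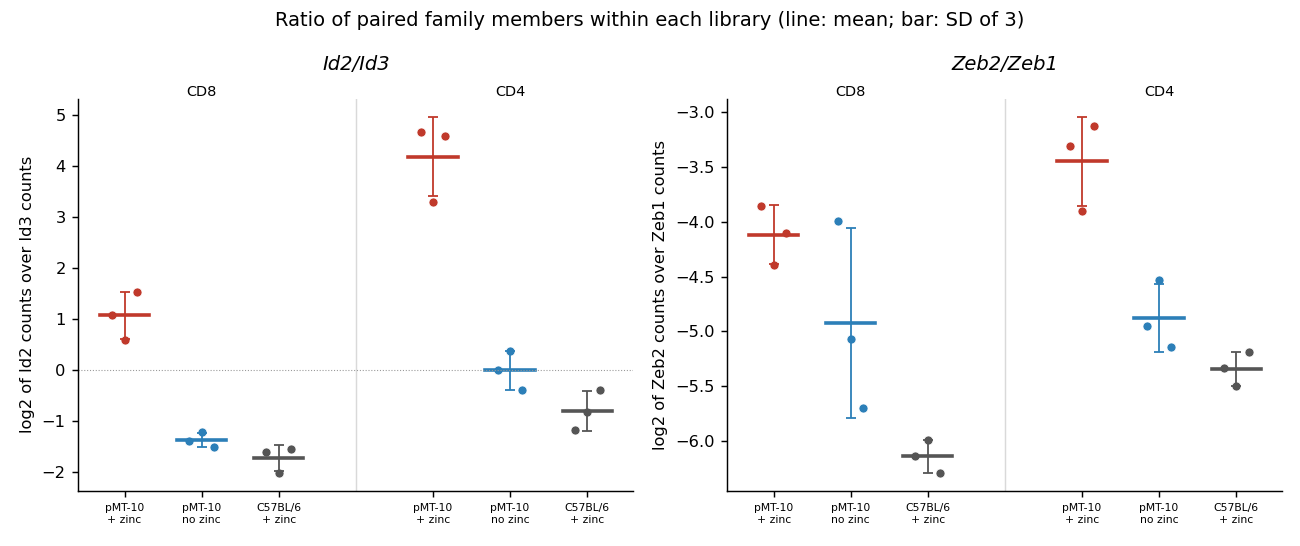
Log2 ratio of Id2 to Id3 counts (left) and of Zeb2 to Zeb1 counts (right) in each library, CD8 groups left of CD4 groups; lines are means and bars SDs of 3. The zinc-fed pMT-10 libraries lay between 0.60 and 1.53 (CD8) and between 3.29 and 4.68 (CD4) for Id2 over Id3, above every control library of the same cell type.

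The E-protein genes passed the test in no comparison with a control. Tcf3 (chr10:80409514-80433647), which encodes E12 and E47, had 46.5, 49.6 and 47.7 CPM in zinc-fed pMT-10 CD8 cells, 57.4, 64.7 and 65.7 CPM in pMT-10 without zinc, and 51.8, 70.8 and 59.1 CPM in zinc-fed C57BL/6 mice. The zinc-fed pMT-10 libraries lay below all 6 control CD8 libraries, yet neither difference passed the test. The log2 difference was -0.34 against C57BL/6 (95% CI -0.64 to -0.04, adjusted p = 0.155) and -0.38 against pMT-10 without zinc (95% CI -0.68 to -0.09, adjusted p = 0.112). In CD4 cells Tcf3 averaged 48.8 ± 0.340, 48.3 ± 1.24 and 41.0 ± 5.31 CPM in zinc-fed pMT-10, pMT-10 without zinc and C57BL/6 mice. The CD4 difference from C57BL/6 was 0.25 on the log2 scale (95% CI -0.05 to 0.55, adjusted p = 0.247). The change in CD8 minus that in CD4 cells against C57BL/6 was -0.59 (95% CI -1.01 to -0.17, adjusted p = 0.0933), and DESeq2 called it (adjusted p = 0.0446). It was -0.40 against pMT-10 without zinc (95% CI -0.82 to 0.02, adjusted p = 0.297).

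Tcf12 (chr9:71842688-72111871), which encodes HEB, ranged from 191 to 209.6 CPM in zinc-fed pMT-10 CD8 cells, from 181 to 198 CPM in pMT-10 without zinc and from 179.6 to 257 CPM in zinc-fed C57BL/6 mice. In CD4 cells it averaged 155 ± 12.1, 179 ± 16.5 and 167 ± 26.0 CPM in those mice. The intervals of all 4 log2 differences spanned 0 and lay within -0.50 and 0.36. On the opposite strand 4 annotated genes overlap Tcf12, 4 overlap Zeb2 and 2 overlap Zeb1, and 1 gene that overlaps Zeb1 is in the panel. None of those on the opposite strand is protein-coding, and the strand used in counting is not given, so reads from either strand cannot be told apart.

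Tcf4, the E2-2 gene that is also known as the master factor of plasmacytoid dendritic cells, had few reads in CD8 cells. In CD8 cells it had 1, 15 and 15 reads in zinc-fed pMT-10 mice, 48, 22 and 59 reads in pMT-10 without zinc, and 8, 18 and 45 reads in zinc-fed C57BL/6 mice. These are 0.0853, 1.41 and 1.10 CPM, then 3.15, 2.15 and 3.13 CPM, then 0.686, 1.68 and 3.01 CPM. Zinc-fed pMT-10 lay below pMT-10 without zinc in every CD8 library and overlapped with C57BL/6. The log2 difference of -1.70 from pMT-10 without zinc did not pass (95% CI -2.94 to -0.46, adjusted p = 0.0895), and was -1.17 without the library of 1 read. DESeq2 (adjusted p = 0.0399) and the edgeR fit with no filter on low counts (adjusted p = 0.0395) called it. In CD4 cells Tcf4 had 3.20, 5.58 and 5.09 CPM in zinc-fed pMT-10 mice, 8.14, 9.01 and 6.87 CPM in pMT-10 without zinc, and 13.1, 7.87 and 6.83 CPM in zinc-fed C57BL/6 mice. All 3 zinc-fed pMT-10 libraries were below all 6 control libraries. Neither difference passed (log2 -1.01, 95% CI -2.11 to 0.10, adjusted p = 0.205 against C57BL/6; log2 -0.79, 95% CI -1.90 to 0.31, adjusted p = 0.328 against pMT-10 without zinc). With only the CD4 libraries in the fit, edgeR called the difference from C57BL/6 (log2 -0.98, adjusted p = 0.0458).

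Zeb2 (chr2:44983632-45117395) had 6.65, 3.95 and 7.32 CPM in zinc-fed pMT-10 CD8 cells, 6.95, 2.63 and 2.49 CPM in pMT-10 without zinc, and 1.63, 1.495 and 1.61 CPM in zinc-fed C57BL/6 mice. These values rest on 42 to 100, 27 to 106 and 16 to 24 reads. The zinc-fed pMT-10 libraries lay above those of C57BL/6, and 1 library without zinc lay among them. Against C57BL/6 Zeb2 was 3.79-fold higher (log2 1.92, 95% CI 1.00 to 2.83, adjusted p = 0.00767). The difference from pMT-10 without zinc did not pass for Zeb2 (log2 0.57, 95% CI -0.29 to 1.43, adjusted p = 0.475), and without the library of 6.95 CPM the log2 difference was 1.22 (adjusted p = 0.112).

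In CD4 cells Zeb2 had 9.46, 6.999 and 13.3 CPM in zinc-fed pMT-10 mice, 4.39, 4.96 and 3.44 CPM in pMT-10 without zinc, and 3.19, 2.55 and 3.38 CPM in zinc-fed C57BL/6 mice. The zinc-fed pMT-10 libraries lay above all 6 control libraries. Zeb2 was 3.26-fold higher than in C57BL/6 (log2 1.70, 95% CI 0.82 to 2.58, adjusted p = 0.00637) and 2.32-fold higher than in pMT-10 without zinc (log2 1.22, 95% CI 0.36 to 2.07, adjusted p = 0.0434). The call against pMT-10 without zinc was narrow and was lost without TMM scaling (adjusted p = 0.07), with no filter on low counts (adjusted p = 0.0929) and when any of 7 libraries was left out. Those were all 3 of pMT-10 without zinc CD4, replicates 1 and 3 of zinc-fed pMT-10 CD4, replicate 1 of zinc-fed pMT-10 CD8 and replicate 1 of C57BL/6 CD4, with log2 values from 0.95 to 1.41 over all libraries left out. The Zeb2 change in CD8 minus that in CD4 cells was 0.21 against C57BL/6 (95% CI -1.02 to 1.45, adjusted p = 0.883) and -0.65 against pMT-10 without zinc (95% CI -1.86 to 0.56, adjusted p = 0.594), and both intervals are too wide to tell equal from unequal changes.

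Zeb1 had 96.8, 83.9 and 127 CPM in zinc-fed pMT-10 CD8 cells, 111, 89.9 and 131 CPM without zinc, and 118, 97.9 and 128 CPM in C57BL/6. The 3 CD8 groups overlapped. In CD4 cells it had 94.1, 105 and 116 CPM in zinc-fed pMT-10 mice, 137, 115 and 122 CPM without zinc, and 130.5, 117 and 124 CPM in C57BL/6. The CD4 libraries of zinc-fed pMT-10 mice lay just below those of C57BL/6, with a log2 difference of -0.24 that did not pass (95% CI -0.58 to 0.10, adjusted p = 0.345). The intervals of all 4 comparisons reached from -0.59 to 0.23 on the log2 scale, so a fall of more than 0.59 lay outside each of them. The log2 ratio of Zeb2 to Zeb1 counts averaged -4.12 ± 0.269, -4.92 ± 0.867 and -6.14 ± 0.151 in CD8 cells from zinc-fed pMT-10, pMT-10 without zinc and C57BL/6 mice. In CD4 cells it averaged -3.45 ± 0.405, -4.88 ± 0.312 and -5.34 ± 0.157. The zinc-fed pMT-10 group had the highest Zeb2 share in both cell types, with 1 CD8 library without zinc overlapping.

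Counting separation instead of calls, 4 of the 7 genes did not overlap between zinc-fed pMT-10 and C57BL/6 in CD8 cells (Id2, Id3, Tcf3 and Zeb2), where 23.6% of all genes did not. The count was 6 of 7 in CD4 cells, all but Tcf12, where 37.4% of all genes did not overlap. Against pMT-10 without zinc it was 4 of 7 in CD8 cells (Id2, Id3, Tcf3 and Tcf4; 23.1% of all genes) and 4 of 7 in CD4 cells (Id2, Id3, Tcf4 and Zeb2; 43.3% of all genes).

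The control groups were set against each other to see how the genes stood without induced IL-10, though strain, sex, zinc and chip all differ between them. No member was called between pMT-10 without zinc and zinc-fed C57BL/6 in either cell type by edgeR, where 0.0972% of all genes were called in CD8 cells and 0.141% in CD4 cells. In CD8 cells 1 member had an unadjusted p under 0.05, and DESeq2 called none. It was Zeb2, which averaged 4.02 ± 2.53 CPM without zinc and 1.58 ± 0.0719 CPM in C57BL/6 (log2 1.35, 95% CI 0.44 to 2.26, adjusted p = 0.515). Without the library of 6.95 CPM the log2 difference of Zeb2 was 0.70. In CD4 cells 1 member, Id2, had an unadjusted p under 0.05. It averaged 138 ± 5.23 CPM without zinc and 83.1 ± 10.3 CPM in C57BL/6, with no overlap (log2 0.74, 95% CI 0.37 to 1.10, adjusted p = 0.193). DESeq2 called it (adjusted p = 0.0338), as did edgeR with no filter on low counts (adjusted p = 0.00281) and with the CD4 libraries alone (adjusted p = 0.0297).

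Natural killer and innate-like T cells are known to hold much Id2, and their markers were read in these CD4 controls. Of 5 tested natural killer genes 1 was called, and the 1 tested gene of innate-like T cells was not. The 8 natural killer genes in the panel summed to 190.4 to 217 CPM in CD4 cells of pMT-10 mice without zinc and to 45.3 to 59.8 CPM in C57BL/6. Klrb1c, the NK1.1 gene, took most of it, with 171 ± 11.8 and 39.9 ± 5.08 CPM (log2 2.10, adjusted p = 0.0481), whereas Klra4 was at 0 in both groups and Klra8 at 0 in C57BL/6. Zbtb16, the PLZF gene of innate-like T cells, averaged 15.5 ± 3.31 and 4.98 ± 3.998 CPM and did not pass (log2 1.64, adjusted p = 1). In zinc-fed pMT-10 CD4 cells the natural killer genes summed to 11.9 to 20.4 CPM, Klrb1c averaged 9.44 ± 5.15 CPM and Ncr1, Klra8 and Klra4 were at 0. Of the 5 tested natural killer genes 3 were called lower in those cells against each control. All genes called were 18.7% against C57BL/6 and 18.8% against pMT-10 without zinc. Zbtb16 was called lower there against pMT-10 without zinc (log2 -4.19) and was not called against C57BL/6 (log2 -2.56). The part of natural killer and innate-like T cells in the Id2 differences between CD4 groups was not tested.

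CD8 cells were then compared with CD4 cells in each kind of mouse. Among the 7 genes 3 were called in zinc-fed pMT-10 mice (28.1% of all genes), 1 in pMT-10 without zinc (21.7% of all genes) and 3 in C57BL/6 mice (22.2% of all genes). Id2 was lower in CD8 cells of all 3 kinds of mice, at 0.415 of its CD4 level in zinc-fed pMT-10 mice (log2 -1.27, adjusted p = 1.72e-05), 0.296 without zinc (log2 -1.76, adjusted p = 2.72e-07) and 0.455 in C57BL/6 (log2 -1.13, adjusted p = 7.97e-05). Tcf4 was lower in CD8 than in CD4 cells of zinc-fed pMT-10 mice (log2 -2.41, 95% CI -3.65 to -1.16, adjusted p = 0.0045) and of C57BL/6 mice (log2 -2.35, 95% CI -3.52 to -1.18, adjusted p = 0.00423). The C57BL/6 value was -2.97 without CD8 replicate 3, the library with 45 reads. Without zinc the Tcf4 difference was -1.503 (adjusted p = 0.0516), and all 6 other settings of normalization, filter or tool called it (adjusted p 0.00632 to 0.0492). Tcf3 was 1.48-fold higher in CD8 cells of C57BL/6 mice (log2 0.56, 95% CI 0.26 to 0.86, adjusted p = 0.00691). That call was lost without C57BL/6 CD8 replicate 2 (adjusted p = 0.0514) and with the C57BL/6 libraries alone (adjusted p = 0.0504). Without zinc the Tcf3 difference was 0.37 and did not pass (adjusted p = 0.0674), and DESeq2 called it (adjusted p = 0.0497). In zinc-fed pMT-10 mice it was -0.026 (adjusted p = 0.915). Tcf12 had a log2 difference of 0.37 in zinc-fed pMT-10 mice, which missed the threshold (adjusted p = 0.0561) and was called under 4 of 6 other settings. The Tcf12 difference was 0.36 in C57BL/6 mice (adjusted p = 0.0693) and 0.085 without zinc (adjusted p = 0.733). Zeb1 and Zeb2 were called in no kind of mouse. The differences between kinds of mice in these CD8 to CD4 contrasts are, for zinc-fed pMT-10 against each control, the CD8 minus CD4 changes given above, which Id3 alone of the 7 passed. That between the control groups was not tested.

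**Figure D4:**
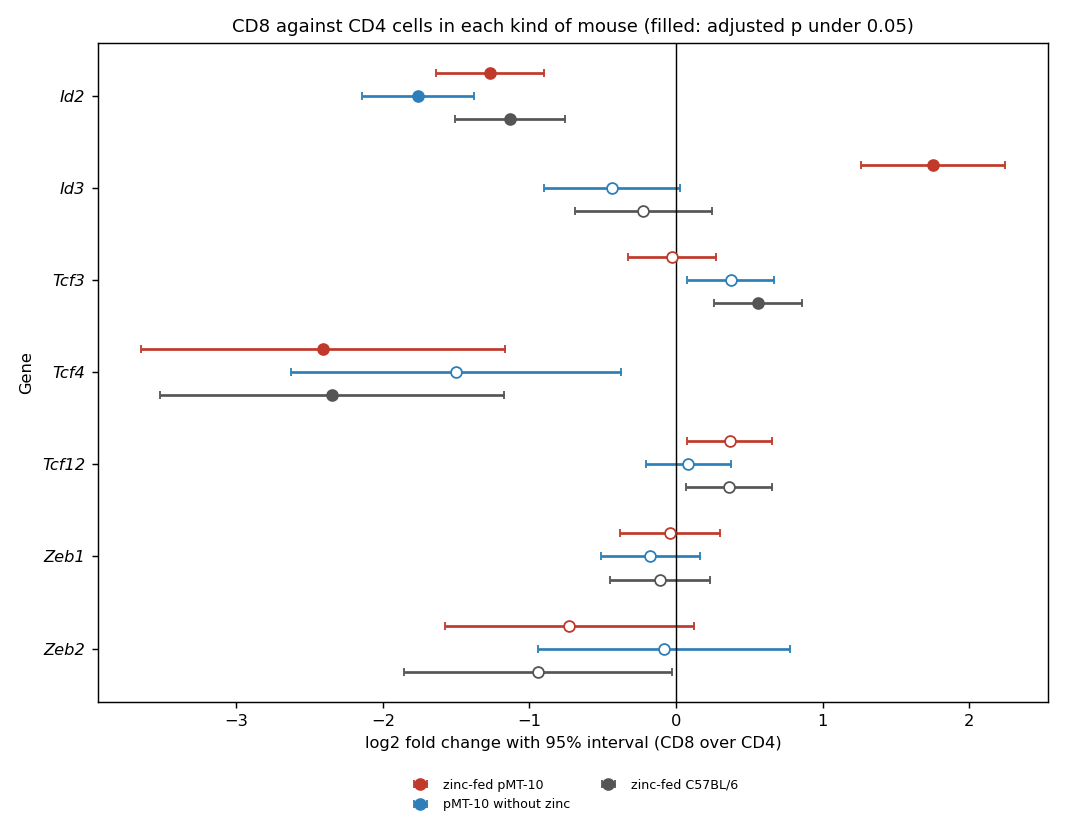
Log2 fold change of each gene in CD8 over CD4 cells of zinc-fed pMT-10 (red), pMT-10 without zinc (blue) and zinc-fed C57BL/6 (grey) mice, with 95% confidence intervals; filled points had an adjusted p under 0.05. Id2 lay left of 0 in all 3 kinds of mice (-1.27, -1.76 and -1.13), whereas Id3 lay at 1.75 in zinc-fed pMT-10 mice with both controls just left of 0.

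Genes with known ties to the 7 were read as lists. All lists were chosen with earlier results of these data known, so their counts and medians are descriptions and not tests. Among the relatives and partners of the basic helix-loop-helix factors 7 of 13 were tested. In CD8 cells 1 rose and 1 fell against C57BL/6 (8.81% of all genes called), and 2 rose and 1 fell against pMT-10 without zinc (7.74%). In CD4 cells 1 rose and none fell against each control (18.7% and 18.8% of all genes called). Bhlhe40, a repressor known from activated effector T cells, rose in all 4 comparisons. It averaged 103 ± 47.0 CPM in zinc-fed pMT-10 CD8 cells, 9.07 ± 3.45 CPM in pMT-10 without zinc and 9.86 ± 4.81 CPM in zinc-fed C57BL/6 mice (log2 3.37 against C57BL/6, adjusted p = 5.43e-05). In CD4 cells it averaged 550.02 ± 47.9, 135 ± 24.5 and 137 ± 54.6 CPM (log2 2.01 against C57BL/6, adjusted p = 0.00118). Id1 was tested and was called in no comparison. Cbfa2t3, a corepressor gene, had 0 counts in all 3 zinc-fed pMT-10 CD8 libraries, 14 to 41 counts in pMT-10 without zinc and 1 to 29 counts in zinc-fed C57BL/6 mice. It was called lower against both controls (adjusted p = 0.0286 without zinc and 0.0392 in C57BL/6), and the calls were lost without any 1 of 4 libraries (adjusted p up to 0.0932) and any 1 of 6 (up to 0.102). Of 7 tested corepressors of these factors none was called in CD8 cells against C57BL/6. In CD4 cells 1 of 7 was called, where 18.7% of all genes were, and against pMT-10 without zinc none was in either cell type. The called gene was Hdac2, a histone deacetylase gene (log2 -0.65, adjusted p = 0.0432), and it was not called with RLE scaling (adjusted p = 0.0531).

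Of 18 tested regulators known to act on the 7 genes, 1 rose (Prdm1) and 2 fell (Ski and Tgfb1) in CD8 cells against C57BL/6, where 8.81% of all genes were called. Against pMT-10 without zinc 2 rose and 2 fell in CD8 cells (7.74% of all genes), and Stat3, a transducer of IL-10 receptor signals, was among the higher ones (log2 0.71, adjusted p = 0.0033). In CD4 cells 5 rose (Egr1, Egr2, Egr3, Prdm1 and Stat3) and 3 fell (Ski, Smad4 and Stat5b) against C57BL/6, and 5 rose and 3 fell against pMT-10 without zinc (18.7% and 18.8% of all genes). Prdm1 encodes Blimp-1, which is known to repress Id3. It averaged 38.7 ± 21.3 CPM in zinc-fed pMT-10 CD8 cells, 0.596 ± 0.528 CPM without zinc and 2.18 ± 0.597 CPM in C57BL/6 (log2 4.13 against C57BL/6, adjusted p = 8.56e-05). In CD4 cells Prdm1 averaged 209.1 ± 30.8 CPM in zinc-fed pMT-10 mice, 67.6 ± 9.61 CPM without zinc and 74.1 ± 35.6 CPM in C57BL/6. The Prdm1 change in CD8 minus that in CD4 cells was 2.63 against C57BL/6 (adjusted p = 0.03, lost without any 1 of 8 libraries, up to 0.0844) and 4.36 against pMT-10 without zinc (adjusted p = 0.00479). Its CD4 call against C57BL/6 was lost without any 1 of 4 libraries (adjusted p up to 0.0976). Egr1 and Egr2, which are known to induce Id3 after antigen receptor signals, rose in CD4 cells. The part of Prdm1, Egr1 and Egr2 in the Id3 differences was not tested. Egr1 averaged 385 ± 100.4 CPM in CD4 cells of zinc-fed pMT-10 mice, 86.3 ± 14.4 CPM without zinc and 132 ± 61.9 CPM in C57BL/6 (log2 1.55 against C57BL/6, adjusted p = 0.000276). Egr2 averaged 14.9 ± 2.62, 2.58 ± 0.619 and 3.66 ± 0.706 CPM in the same CD4 groups (log2 2.02 against C57BL/6, adjusted p = 0.00102). The Egr1 change in CD8 minus that in CD4 cells was -1.60 against C57BL/6 (adjusted p = 0.0145). Ski, a repressor of TGF-beta signals, fell by 0.77 on the log2 scale in CD8 cells against C57BL/6 (adjusted p = 0.0055). Tbx21, the T-bet gene, was called in none of the 4 comparisons and averaged 66.3 ± 4.01, 43.4 ± 7.80 and 64.8 ± 20.1 CPM in CD8 cells.

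Of 10 tested genes known as E-protein targets in lymphocytes, none rose and 3 fell in CD8 cells against C57BL/6 (Il7r, Cxcr5 and the residual reads of Cd4), with a list median of -0.39 beside -0.0037 over all genes. In CD4 cells 1 rose and 2 fell, with a median of -0.23 beside -0.047. Against pMT-10 without zinc 1 rose and 1 fell in CD8 cells, with a median of 0.0446, and 2 rose and 2 fell in CD4 cells, with a median of -0.16. These shares stand beside 8.81% and 18.7% of all genes called against C57BL/6 and 7.74% and 18.8% against pMT-10 without zinc. Dntt, the terminal transferase gene of lymphoid precursors, fell in CD4 cells, with 0.962 ± 0.395 CPM in zinc-fed pMT-10 mice, 9.07 ± 4.04 CPM without zinc and 17.5 ± 5.62 CPM in C57BL/6 (log2 -4.20 against C57BL/6, adjusted p = 1.16e-06). Il7r, the interleukin-7 receptor gene, fell in CD4 cells by 1.69 on the log2 scale against C57BL/6 (adjusted p = 9.77e-05), and by 2.30 without replicate 2 of zinc-fed pMT-10 CD4. Its CD8 call was lost without any 1 of 9 libraries (adjusted p up to 0.12). Notch1 rose in CD4 cells (log2 1.08 against C57BL/6, adjusted p = 0.0011).

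Effector genes that are known to go with Id2 and Zeb2 rose in 6 of 11 tested cases in CD8 cells and in 5 of 11 in CD4 cells against C57BL/6, and none fell (8.81% and 18.7% of all genes were called). The counts were the same against pMT-10 without zinc (7.74% and 18.8% of all genes). Because this list was chosen with earlier results known, a share above that of all genes is a description and no test. The list medians were 3.09 in CD8 and 0.575 in CD4 cells against C57BL/6, and 2.12 and 0.22 against pMT-10 without zinc. Gzmb, the granzyme B gene, averaged 1557 ± 571 CPM in zinc-fed pMT-10 CD8 cells, 11.03 ± 1.91 CPM without zinc and 19.5 ± 13.4 CPM in C57BL/6 (log2 6.30 against C57BL/6, adjusted p = 2.9e-06; 7.03 without C57BL/6 CD8 replicate 3). Ifng, the interferon gamma gene, averaged 240.04 ± 100.4 CPM in zinc-fed pMT-10 CD8 cells, against 8.95 ± 4.08 CPM without zinc and 11.2 ± 6.78 CPM in C57BL/6 (log2 4.42 against C57BL/6, adjusted p = 2.52e-05). The lists share genes, so the same change can be counted in more than 1 of them. Among those shared, Il7r and Cxcr5 are also E-protein targets above, and Prdm1 and Tbx21 are both regulators and effector genes. Memory and naive genes that are known to go with Id3, E-proteins and Zeb1 fell in 4 of 15 tested cases in CD8 cells (Tcf7, Lef1, Il7r and Cxcr5) and in 10 of 15 in CD4 cells against C57BL/6, and 1 rose in CD4 cells. With pMT-10 without zinc as the control 1 rose and 2 fell in CD8 cells, and 3 rose and 9 fell in CD4 cells. The shares of all genes called were 8.81% and 18.7% against C57BL/6 and 7.74% and 18.8% against pMT-10 without zinc, in CD8 and CD4 cells. The list medians were -0.28 and -1.20 against C57BL/6, and -0.32 and -1.03 against pMT-10 without zinc. Eomes, a T-box gene of memory and cytotoxic cells, was the one that rose in CD4 cells against C57BL/6, with 335 ± 46.9, 12.3 ± 4.56 and 20.2 ± 8.33 CPM (log2 4.05 against C57BL/6, adjusted p = 1.42e-08). Its CD8 difference from C57BL/6 was 0.66 and did not pass (adjusted p = 0.117).

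The genes whose levels ran most like those of each member over the 18 libraries were named by Pearson's r of log2 CPM among the 7610 to 7611 genes with a mean of at least 10 CPM. The libraries share groups, depth and batches, and these values are descriptions. Id2 ran closest to Cd38 (r = 0.968), Il12rb1 (r = 0.967) and Cysltr2 (r = 0.956). Cd38, an activation antigen with NAD glycohydrolase activity, averaged 58.3 ± 24.2, 6.20 ± 2.19 and 6.02 ± 2.12 CPM in CD8 cells from zinc-fed pMT-10, pMT-10 without zinc and C57BL/6 mice, and 178 ± 35.0, 24.2 ± 1.86 and 22.2 ± 3.50 CPM in their CD4 cells. Id3 ran closest to Zbtb10 (r = 0.971), Frat1 (r = 0.962) and St6gal1 (r = 0.956). Zbtb10 averaged 2.40 ± 1.33, 15.3 ± 1.85 and 14.6 ± 2.18 CPM in CD4 cells of the same kinds of mice, with its lowest level in zinc-fed pMT-10 CD4 cells as for Id3. The closest gene was Ctbp1 for Tcf3 (r = 0.883), Tnfsf11 for Tcf4 (r = 0.888), Tcf20 for Tcf12 (r = 0.891), Ldb1 for Zeb1 (r = 0.855) and Trafd1 for Zeb2 (r = 0.876).

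Cells other than conventional T cells can hold Id2, Tcf4 and Zeb2, and their markers were read beside these genes. The 8 plasmacytoid dendritic cell genes summed to 314 to 337 CPM in CD4 cells of zinc-fed pMT-10 mice, 83.0 to 108 CPM without zinc and 96.7 to 101 CPM in C57BL/6. Irf8 and Runx2 made up most of that sum in zinc-fed pMT-10 mice, at 171 ± 32.4 and 127 ± 18.1 CPM. Siglech averaged 0.0250 CPM in those CD4 cells and was at 0 in CD8 cells of the same mice. Of 7 tested genes of this list, 3 were called higher and 1 lower in CD4 cells against C57BL/6 (18.7% of all genes). The counts were the same against pMT-10 without zinc (18.8% of all genes). In CD8 cells 2 were called higher and 1 lower against C57BL/6 (8.81% of all genes). Against pMT-10 without zinc 3 were higher and 1 lower (7.74% of all genes). The mean of Tcf4, the factor of plasmacytoid dendritic cells, was lower in zinc-fed pMT-10 than in both controls of either cell type. These differences did not pass the test. The natural killer genes, given for CD4 cells above, summed to 51.9 to 114 CPM in zinc-fed pMT-10 CD8 cells, 125 to 217 CPM without zinc and 154 to 264 CPM in C57BL/6, and Ncr1 was at 0 in zinc-fed pMT-10 CD8 cells. In CD8 cells the 7 conventional dendritic cell genes summed to 1.37 to 5.65 CPM in zinc-fed pMT-10 mice. They summed to 0.262 to 1.70 CPM without zinc and to 0.669 to 1.40 CPM in C57BL/6. In CD4 cells these sums were 10.5 to 13.7, 4.33 to 10.7 and 2.47 to 13.8 CPM in that order of mice. Neither of the 2 tested genes was called against a control in either cell type. The monocyte and macrophage genes summed to at most 7.90 CPM in any library. In CD4 cells the 7 B cell genes summed to 6.59 to 23.2 CPM in zinc-fed pMT-10 mice. The sums were 29.9 to 37.3 CPM without zinc and 26.9 to 32.4 CPM in C57BL/6. In CD8 cells they were 27.2 to 45.9, 33.8 to 57.9 and 43.4 to 53.1 CPM in that order of mice. Of these B cell genes, Pax5 was at 0 in all 18 libraries. Foxp3, which marks regulatory T cells and is an E-protein target, averaged 963 ± 294 CPM in CD4 cells of zinc-fed pMT-10 mice, 1570.1 ± 216 CPM without zinc and 1656 ± 52.4 CPM in C57BL/6 (adjusted p = 0.151 against C57BL/6). In CD4 cells the 7 T cell genes, Cd4 among them, summed to 8085 to 9423 CPM in zinc-fed pMT-10 mice. The sums were 4400 to 4436 CPM without zinc and 5243 to 5626 CPM in C57BL/6. Of these genes 4 were called higher against pMT-10 without zinc and 3 against C57BL/6, and none lower (18.8% and 18.7% of all genes). In CD8 cells the sums ranged from 7014 to 8838 CPM over the groups. Of the 7 genes 2 were called lower and none higher in zinc-fed pMT-10 CD8 cells against C57BL/6 (8.81% of all genes). Against pMT-10 without zinc none was called in CD8 cells (7.74% of all genes). The part of the cells named here, or of a shift among CD4 subsets, in the Id2, Id3 and Zeb2 differences was not tested.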

How the data were processed

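The deposited values were raw read counts per gene, with 1 amplicon per gene, in 2 tables of 18 Ion AmpliSeq libraries, per the labels' protocols. The submitters' processing notes name the build mm10. Aligner and counter were not given in the sources used here. Columns were matched by barcode, and replicate numbers follow record order. No 2 libraries of the same group held identical values. The steps below were computed here. Genes were filtered with filterByExpr, which left 11316 of 23930, scaled with TMM (factors 0.935 to 1.075) and fitted in edgeR 4.0.16 (R 4.3.3) with robust quasi-likelihood over 6 group means. Benjamini-Hochberg adjustment ran over all tested genes, with calls at 0.05. Errors are SD over 3 libraries, folds divide mean CPM, and log2 changes are fitted. Ratios used a prior count of 0.5. The pipeline was tested on simulated data. Alternatives were RLE scaling, library size only, no filter, a filter of 5 CPM in 3 libraries, DESeq2 1.42.0, fits on the libraries compared alone, a prior count of 2 for ratios, and each library left out. Reads carry no named molecular identifiers, so precision from counts covers counting error only. The 7 genes and the lists were chosen with earlier results of these data known. List genes given with values are at most 3 per list and comparison with the largest called change and no overlap. Other called genes are named beside some of the counts. Outside that rule, Tbx21, Id1, Foxp3, Klrb1c, Zbtb16, Irf8 and Runx2 were named after their values were seen. The marker genes Siglech, Ncr1, Pax5, Klra4 and Klra8 were also named outside it. Some genes of these lists are not reported here by name. Promoter sequences and windows are RefSeq's, and gene positions are from GENCODE M21.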

Additional observations from a re-analysis of the deposited data

Results flagged for a closer look

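Id3 differed between the cell types in its response, by the test of the difference itself in edgeR. The log2 change in CD8 cells minus that in CD4 cells was 1.98 for zinc-fed pMT-10 against C57BL/6 (adjusted p = 0.0013) and 2.19 with pMT-10 without zinc as the control (adjusted p = 0.000475). In CD4 cells Id3 was lower in 3 of 3 zinc-fed pMT-10 libraries than in any control library (21.8 ± 9.78 CPM, against 143 ± 38.5 CPM without zinc and 146 ± 23.2 CPM in C57BL/6), and in CD8 cells it was also lower in 3 of 3 (73.3 ± 6.86 CPM, against 106 ± 10.8 and 125 ± 8.79 CPM). With any single library left out the difference of changes ranged from 1.75 to 2.39 against C57BL/6 and from 1.96 to 2.61 against pMT-10 without zinc, and it passed each time. The 2 tests share the zinc-fed pMT-10 libraries.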

How the results depend on the processing

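No paired analysis was made, because the labels do not state which libraries came from the same mouse and replicate numbers follow record order. Sample titles number CD4 and CD8 libraries in turn, so these may be paired by mouse. The p-values of CD8 against CD4 cells and of the differences between cell types treat them as independent. The calls of Id2 in all 4 comparisons with a control, of Id3 in CD4 cells against both controls, of Zeb2 against C57BL/6 in both cell types (adjusted p up to 0.0347 in CD8 and 0.0466 in CD4 with a library left out) and of both Id3 differences between cell types held under every alternative run. Depth limits Tcf4 and Zeb2, which rest on 1 to 173 and 16 to 177 reads per library.

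Of the log2 changes of the 7 genes under settings other than leaving out a library, 412 kept direction and side of the threshold, 19 newly passed, 4 no longer passed and 13 changed sign. With a library left out the numbers were 1324, 9, 15 and 38. Many of these fits kept every library of the groups compared. In them a value can move only through the filter, the scaling and the shared estimate of spread. The 42 mean ratios moved by less than 1 SD with a prior count of 2. The cause of each change below was not tested. Members called against pMT-10 without zinc in CD8 cells numbered 3 with no filter (Id2, Id3 and Tcf4; Id3 adjusted p = 0.0392) and 2 with DESeq2, against 1 in the main setting. Between the CD4 controls 1 member (Id2) was called with no filter, with DESeq2 and with only the libraries compared, against 0. For CD8 against CD4 without zinc, 2 members were called with RLE, library size only, no filter, the stricter filter and only the libraries compared, and 3 with DESeq2, against 1 (1 to 2 with a library left out). DESeq2 called 2 members in the difference between cell types against C57BL/6, against 1.

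Of all genes, 613 (only the CD8 libraries) against 997 were called between zinc-fed pMT-10 and C57BL/6 in CD8 cells, and 559 against 876 between zinc-fed pMT-10 and pMT-10 without zinc. Between the CD8 controls no filter gave 107 and DESeq2 42, against 11, and between the CD4 controls 83 and 33, against 16. For the difference between cell types no filter gave 1055 and DESeq2 1030 against 621 (C57BL/6), and 847 and 799 against 428 (without zinc). With a library left out the called genes ranged from 587 to 1051 and from 1377 to 2204 against C57BL/6 in CD8 and CD4 cells, from 565 to 918 and from 1373 to 2225 against pMT-10 without zinc, from 7 to 16 between the CD4 controls, and from 255 to 837 (C57BL/6) and 133 to 693 (without zinc) for the difference between cell types. The lowest counts came without C57BL/6 CD8 replicate 3 (587), CD8 replicate 3 without zinc (565) and zinc-fed pMT-10 CD4 replicate 1 (1377, 1373, 255 and 133).

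Signs changed for log2 values that passed no test. With library size only they were -0.1321 for Tcf3 in CD4 against pMT-10 without zinc, 0.0046 for Id3 between the CD4 controls, 0.0634 and 0.0505 for Tcf3 and Zeb1 in CD8 against CD4 of zinc-fed pMT-10, -2e-04 for Tcf12 in CD8 against CD4 without zinc, and 0.0228 and 0.0984 for Id2 and Tcf4 in the difference between cell types against C57BL/6. Zeb1 between the CD4 controls was -3e-04 with RLE and DESeq2 and -0.0025 with the stricter filter. Tcf12 in the difference between cell types against C57BL/6 was -0.0018 with RLE, -0.0095 with no filter and -0.0019 with DESeq2. With a library left out the ranges that crossed 0 were -0.1883 to 0.0237 (Tcf12, CD4 against C57BL/6), -0.207 to 0.0415 (Tcf12, CD8 against C57BL/6), -0.2962 to 0.0279 (Zeb1, CD8 against pMT-10 without zinc), -0.2214 to 0.0993 (Zeb1, CD8 against CD4, zinc-fed pMT-10) and -0.7341 to 0.1801 (Zeb2, CD8 against CD4, without zinc). Between the CD4 controls they were -0.2363 to 0.1564 (Id3), -0.3957 to 0.1245 (Tcf4) and -0.0559 to 0.0633 (Zeb1), and between the CD8 controls -0.0147 to 0.2505 (Id2), -0.0522 to 0.1698 (Tcf3) and -0.193 to 0.078 (Zeb1). For the difference between cell types they were -0.3498 to 0.0205 (Id2), -0.5413 to 0.5596 (Tcf4), -0.1232 to 0.1499 (Tcf12) and -0.111 to 0.207 (Zeb1) against C57BL/6, and -0.0488 to 0.2754 (Zeb1) and -0.9084 to 0.0055 (Zeb2) against pMT-10 without zinc.

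Library size in place of TMM moved the median log2 of all genes in CD4 cells from -0.047 to -0.155 against C57BL/6 and from -0.0505 to -0.196 against pMT-10 without zinc, and the share of called genes that were higher from 49.7% to 36.5% and from 49.9% to 31.3%. The share moved from 64.5% to 74.9% in CD8 cells against C57BL/6. In CD8 against CD4 it moved from 47.6% to 57.7% in zinc-fed pMT-10 mice and from 41.2% to 31% without zinc. For the differences between cell types it moved from 62.2% to 84.4% (C57BL/6) and from 64.5% to 87.6% (without zinc), with medians of 0.206 and 0.223 beside 0.047.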
